A study of Mus musculus with 6 samples.

Results

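The small leucine-rich proteoglycan genes Dcn, Bgn, Lum, Fmod, Omd, Ogn, Prelp, Aspn and Podn were followed in RNA-seq libraries from the femur marrow of wild-type and P2rx7 knockout mice. These 9 genes were taken by their symbols from the deposited table of 55291 genes. P2rx7 codes for a receptor that opens a cation channel on binding ATP, and the comparison asks what its loss does to bone. The wild-type group (WT 1, 2 and 3) and the P2rx7 knockout group (knockouts A, B and C) each held 3 mice aged 6 to 8 weeks, with 1 library per mouse and no further treatment in the labels. The labels give no strain, sex or origin of the controls, nor the part of P2rx7 that the knockout allele lacks.

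The libraries held 18716704 to 23575652 counts each. P2rx7 itself was at 60.4, 60.4 and 62.6 CPM (counts scaled to library size) in WT 1 to 3 and at 39.3, 38.3 and 37.5 CPM in knockouts A to C, so counts over the whole gene were lower but not lost. How many of them fall on the deleted part is not known. Markers of the labelled tissue were partly near 0: the haemoglobin genes Hba-a1 and Hbb-bs had at most 2 and 5 counts in a library, the B cell gene Cd79a at most 12 and the neutrophil gene Ly6g at most 12. Other genes of the neutrophil lineage were not near 0. Elane had 58 to 1011 counts in a library and Mpo 384 to 5226. S100a8 had 99 to 1009 counts and S100a9 181 to 1830. Of 12 blood cell markers, 5 passed the filter on low counts, and their list summed to 264 to 468 CPM in wild types, against 285 to 637 CPM in the knockouts. The leukocyte gene Ptprc was at 205 to 227 CPM, while Col1a1, a chain of type I collagen, was at 7705 to 10530 CPM. The libraries also differed in traces of other tissues. Growth hormone (Gh) had 54, 82 and 75 counts in the wild types and 23 in knockout A, but 0 in the other two knockouts. Albumin (Alb) had 46 counts in knockout B, 36 in knockout C and 0 elsewhere. Each member is therefore also given for the 4 libraries with Gh counts, a fit in which knockout A alone stands for the knockouts.

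Small leucine-rich proteoglycans are secreted proteins built of leucine-rich repeats, most of which carry chondroitin, dermatan or keratan sulfate chains. They bind collagen and shape its fibrils, and several hold growth factors of the TGF-beta family in the matrix. They are grouped by sequence into classes: Dcn (decorin), Bgn (biglycan) and Aspn (asporin) in class I, Fmod (fibromodulin), Lum (lumican), Prelp and Omd (osteomodulin) in class II, Ogn (osteoglycin, also called mimecan) in class III and Podn (podocan) in class V. In bone, biglycan is known for its part in bone mass, and osteomodulin and osteoglycin were isolated from mineralized tissue. Soluble biglycan is also known as a ligand of the receptors Tlr2 and Tlr4 that acts together with P2X receptors on the inflammasome.

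The regions at the start sites of 5 members are shown because the results below turn on them: Bgn was the most abundant member, Ogn, Aspn and Omd are neighbours whose levels were compared within each library, and Podn had the lowest p. The windows are taken from RefSeq (GRCm38.p6), where 7 of the 9 members were matched. Each runs 5′ to 3′ on the gene's strand, from 250 bases before the start site to 50 after it. Bgn is at chrX:73483351-73483650 (plus strand), Ogn at chr13:49607765-49608064 (plus), Aspn at chr13:49544193-49544492 (plus), Omd at chr13:49582212-49582511 (plus) and Podn at chr4:108031905-108032204 (minus). Capitals mark matches, on either strand, to the TATA box letters TATAAA, the RUNX letters TGTGGT, the GC box letters GGGCGG and the CCAAT box letters CCAAT.
Bgn: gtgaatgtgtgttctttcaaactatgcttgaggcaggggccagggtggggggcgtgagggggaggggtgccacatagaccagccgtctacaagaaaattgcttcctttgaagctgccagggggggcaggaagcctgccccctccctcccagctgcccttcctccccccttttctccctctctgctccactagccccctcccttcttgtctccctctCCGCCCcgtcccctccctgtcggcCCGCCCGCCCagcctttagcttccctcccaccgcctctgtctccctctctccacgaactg
Ogn: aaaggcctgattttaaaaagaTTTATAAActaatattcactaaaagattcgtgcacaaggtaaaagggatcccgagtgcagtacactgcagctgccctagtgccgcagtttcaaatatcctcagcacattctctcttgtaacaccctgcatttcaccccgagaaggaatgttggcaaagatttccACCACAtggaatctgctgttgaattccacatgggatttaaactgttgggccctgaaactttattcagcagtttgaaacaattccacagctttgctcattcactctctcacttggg
Aspn: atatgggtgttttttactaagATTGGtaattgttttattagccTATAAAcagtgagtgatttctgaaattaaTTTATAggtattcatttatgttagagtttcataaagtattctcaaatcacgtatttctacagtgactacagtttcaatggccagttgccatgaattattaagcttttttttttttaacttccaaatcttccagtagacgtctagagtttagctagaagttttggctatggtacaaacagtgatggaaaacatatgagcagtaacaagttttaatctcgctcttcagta
Omd: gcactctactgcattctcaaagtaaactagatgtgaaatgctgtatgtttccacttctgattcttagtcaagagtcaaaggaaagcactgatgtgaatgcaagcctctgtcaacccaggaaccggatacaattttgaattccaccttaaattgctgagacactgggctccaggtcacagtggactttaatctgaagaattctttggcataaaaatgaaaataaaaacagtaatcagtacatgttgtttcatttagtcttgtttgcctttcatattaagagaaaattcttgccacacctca
Podn: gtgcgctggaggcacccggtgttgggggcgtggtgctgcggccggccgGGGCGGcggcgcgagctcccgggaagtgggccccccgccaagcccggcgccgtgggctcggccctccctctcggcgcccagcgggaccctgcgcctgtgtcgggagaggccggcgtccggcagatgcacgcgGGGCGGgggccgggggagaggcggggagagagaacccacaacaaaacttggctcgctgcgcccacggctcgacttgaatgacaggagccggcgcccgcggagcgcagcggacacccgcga

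The windows differed in base composition. G and C made up 77.0% of the Podn window and 63.7% of the Bgn window, against 42.3% for Ogn, 37.7% for Omd and 31.0% for Aspn, and the median over all 32851 RefSeq windows of this length was 52.7%. The Aspn window was richer in A and T than almost all others, with 1.28% of windows below it in G and C. The Bgn window held 3 GC box matches, at 34, 10 and 6 bases before the start, and the Podn window held 2, at 202 and 70 bases before it. Such a match was present in 35.7% of all windows. The Ogn window held a pair of overlapping TATAAA matches on opposite strands, 229 and 227 bases before the start, and a RUNX match 65 bases before it. The Aspn window held TATAAA 207 and 178 bases before the start and CCAAT 229 bases before it, and the Omd window held none of the 4 motifs. TATAAA was found in 13.6%, TGTGGT in 16.8% and CCAAT in 37.4% of all windows. The RefSeq starts lay within 31 bases of the deposited gene starts for Bgn, Ogn, Aspn and Omd. For Podn, which has 2 RefSeq starts of which the first is shown, the deposited gene span began 64.5 kb upstream of the RefSeq start and covered 81.7 kb.

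Levels of the 9 genes, compared per length as deposited FPKM (counts scaled by exon length and library size), spanned more than 3 orders of magnitude. Bgn was at 794 ± 53.6 FPKM in wild types and 810 ± 27.8 FPKM in knockouts (SD, n = 3), which placed it 27th to 32nd of all genes in each library. Ogn came next at 257 ± 52.1 and 302 ± 46.7 FPKM. Fmod, Prelp and Aspn formed a middle group between 35.2 and 98.6 FPKM in all libraries. Omd followed at 8.89 to 21.5 FPKM and Podn at 3.41 to 7.08 FPKM. Dcn, which is often the most abundant family member in connective tissue, was at 0.696 to 1.56 FPKM, and Lum was lowest at 0.176 to 0.882 FPKM. Bgn exceeded Dcn by 732, 1058 and 931 times per length in WT 1 to 3 and by 544, 527 and 552 times in knockouts A to C. Bgn alone made up 57.4% to 64.5% of the summed FPKM of the 9 genes, and Ogn 17.5% to 24.6%.

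**Figure D1:**
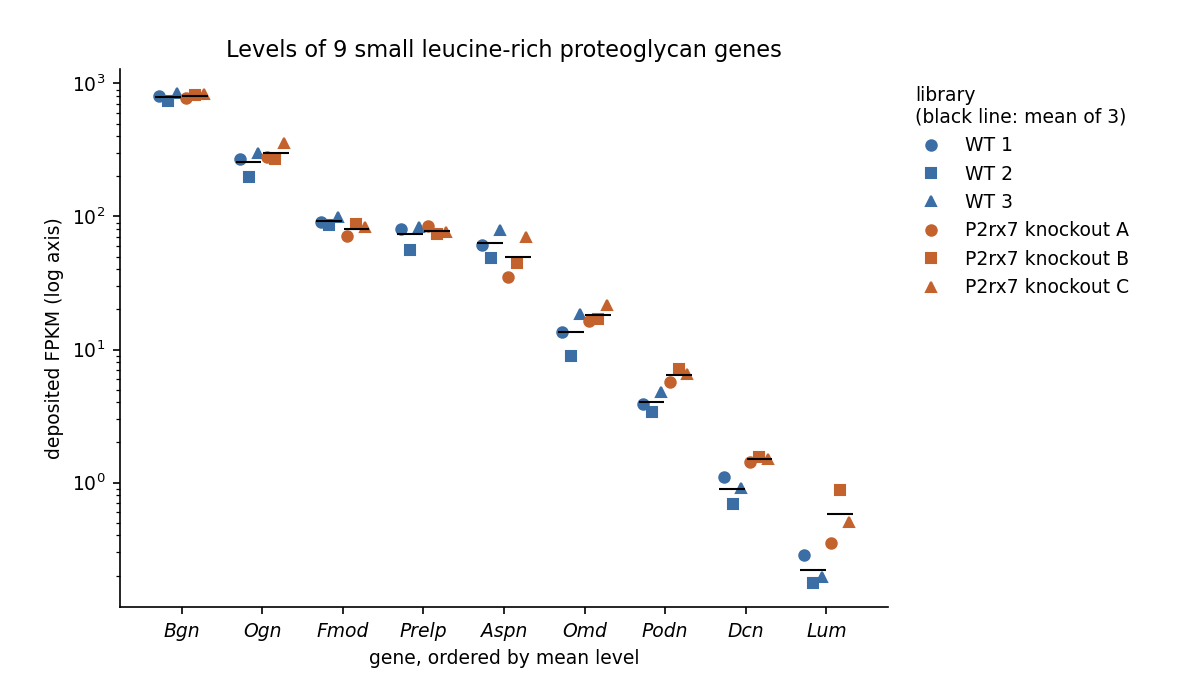
Deposited FPKM (log axis) of each gene in each of the 6 libraries, with genes ordered by mean level and black lines at the mean of the 3 libraries of a genotype. Bgn lies between 736 and 841 FPKM and Lum between 0.176 and 0.882 FPKM, and the order of genes is nearly the same in every library.

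The order of means was Bgn, Ogn, Fmod, Prelp, Aspn, Omd, Podn, Dcn and Lum in both genotypes. Most neighbours in that order did not overlap between libraries of a genotype. The exceptions were Prelp and Aspn in wild types (56.2 to 83.3 and 48.8 to 79.1 FPKM) and Fmod and Prelp in knockouts (71.4 to 88.3 and 73.6 to 84.5 FPKM), which did not differ beyond their spread. Knockout A was the only library in which Prelp stood above Fmod.

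None of the 9 members passed the threshold between genotypes. Podn, Dcn and Lum had the 3 smallest p-values and were higher in every knockout than in every wild type, by 1.61, 1.68 and 2.65 times in the fit, and the most abundant member, Bgn, had a fold of 1.02. By edgeR's quasi-likelihood test with Benjamini-Hochberg adjustment over all 15478 tested genes, 0 of 9 members had an adjusted p below 0.05, where 0.103% of all tested genes did. An unadjusted p below 0.05 was reached by 3 of 9 members, all 3 higher in knockouts, against 16.6% of all tested genes, 8.35% higher and 8.22% lower. DESeq2 on the same genes called 2 of the 9, Podn and Dcn, where it called 496 of all 15478 tested genes. The genotypes did not overlap in 3 members, all higher in knockouts. Over all tested genes, 21.9% did not overlap, 11.5% higher and 10.4% lower. Values above 0 on the log2 fold change scale were found for 7 of 9 members, against 51.2% of all tested genes, and the median was 0.24 against 0.00. All 9 members passed the filter on low counts. Lum is the 1 member that needed the knockouts to do so, since it reached the filter's level in 2 wild types and 3 knockouts, so that it was tested at all rests in part on its higher level there. The labels do not say whether the mice share litters, and p-values measure only the spread between these samples.

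**Figure D2:**
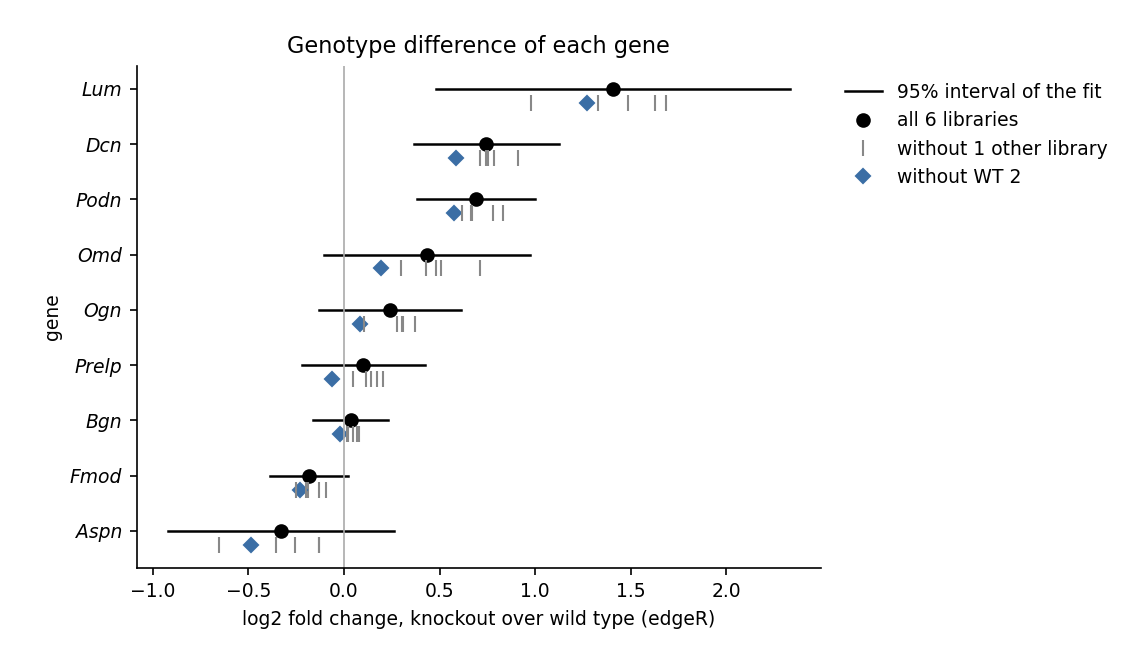
Log2 fold change of knockout over wild type (edgeR) for each gene with its 95% interval, and below it the value with each library left out in turn (blue diamond, without WT 2). The intervals of Lum, Dcn and Podn lie above 0, those of the other 6 genes include 0, and leaving out WT 2 moves Prelp and Bgn just below 0.

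Among the class I genes, Bgn was held within a narrow range. It was at 806, 736 and 841 FPKM in WT 1 to 3 and at 778, 822 and 829 FPKM in knockouts A to C. The genotypes overlapped, with WT 2 lowest and WT 3 highest of all libraries. The log2 fold change was 0.04 ± 0.09 (SE; 95% interval -0.16 to 0.23; adjusted p = 0.877, edgeR), so that the interval of the fold ran from 0.894 to 1.18. In the 4 libraries with Gh counts it was -0.04.

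Dcn, which binds collagen and TGF-beta and is the closest relative of biglycan, was low throughout. It was at 1.10, 0.696 and 0.904 FPKM in WT 1 to 3 and at 1.43, 1.56 and 1.502 FPKM in knockouts A to C, from 94 to 185 counts per library. All knockouts lay above all wild types, and the knockouts were close together while WT 2 was well below WT 1. On the log2 scale the fold change was 0.75 ± 0.17 (SE; 95% interval 0.36 to 1.13; adjusted p = 0.146, edgeR). DESeq2 gave 0.74 with an adjusted p of 0.0168. Leaving out each library in turn gave 0.58 (without WT 2) to 0.91 (without WT 1), and the 4 libraries with Gh counts gave 0.66.

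Aspn, which binds TGF-beta and calcium and carries no glycosaminoglycan chain, was at 60.6, 48.8 and 79.1 FPKM in WT 1 to 3 and at 35.2, 44.4 and 69.6 FPKM in knockouts A to C. Knockouts A and B were the lowest libraries, while knockout C stood among the wild types. In the fit, the log2 fold change was -0.33 ± 0.26 (SE; 95% interval -0.92 to 0.26; adjusted p = 0.554, edgeR). It was -0.13 without knockout A or without WT 3, -0.65 without knockout C and -0.84 in the 4 libraries with Gh counts. Aspn shares 7 exon bases with Cenpp on the other strand, which had 45 to 75 counts against at least 1835 of Aspn.

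Among the class II genes, Fmod and Prelp were close in level and differed little between genotypes. Fmod, which competes with lumican for sites on collagen fibrils, was at 91.1, 86.8 and 98.6 FPKM in WT 1 to 3 and at 71.4, 88.3 and 83.0 FPKM in knockouts A to C. Knockout B lay above WT 2, so the genotypes overlapped. Knockout over wild type, the log2 fold change was -0.18 ± 0.09 (SE; 95% interval -0.39 to 0.02; adjusted p = 0.353, edgeR), and it was -0.38 in the 4 libraries with Gh counts.

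Prelp, which links basement membranes to collagen, was at 80.2, 56.2 and 83.3 FPKM in WT 1 to 3 and at 84.5, 73.6 and 76.5 FPKM in knockouts A to C. WT 2 stood apart below the rest, and the other 5 libraries overlapped. Its log2 fold change was 0.10 ± 0.14 (SE; 95% interval -0.22 to 0.42; adjusted p = 0.759, edgeR), and it was -0.06 without WT 2 and 0.20 in the 4 libraries with Gh counts. Prelp shares 350 exon bases with the predicted gene Gm15851 on the other strand, which had at most 1 count.

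Omd, an osteoblast product that binds hydroxyapatite and integrins, was at 13.6, 8.89 and 18.4 FPKM in WT 1 to 3 and at 16.5, 16.9 and 21.5 FPKM in knockouts A to C. WT 3 lay above knockouts A and B, so the genotypes overlapped. The log2 fold change was 0.43 ± 0.23 (SE; 95% interval -0.11 to 0.97; adjusted p = 0.394, edgeR). It depended on the wild types, at 0.20 without WT 2 and 0.71 without WT 3, and was 0.27 in the 4 libraries with Gh counts.

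Lum, a keratan sulfate proteoglycan that sets fibril spacing in cornea and skin, was close to the limit of detection. It had 14, 10 and 11 counts in WT 1 to 3 and 19, 41 and 25 counts in knockouts A to C. Knockout B was highest, and knockout A was nearest to the wild types. On the log2 scale the fold change was 1.41 ± 0.40 (SE; 95% interval 0.48 to 2.33; adjusted p = 0.185, edgeR), and it was 0.98 without knockout B and 0.68 in the 4 libraries with Gh counts. DESeq2 gave 1.41 and set no adjusted p.

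Ogn, the class III member and the second most abundant of the 9, was at 269, 200 and 302 FPKM in WT 1 to 3 and at 278, 272 and 356 FPKM in knockouts A to C. WT 2 was lowest and knockout C highest, and WT 3 lay above knockouts A and B. In the fit, the log2 fold change was 0.24 ± 0.16 (SE; 95% interval -0.13 to 0.61; adjusted p = 0.490, edgeR), and it was 0.09 without WT 2 and 0.11 in the 4 libraries with Gh counts.

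Podn, a class V member that binds type I collagen and restrains smooth muscle cell growth, had the smallest p of the 9, ranking 107th of all tested genes. It had 333, 337 and 471 counts in WT 1 to 3 and 539, 574 and 565 in knockouts A to C, which corresponds to 3.88, 3.41 and 4.77 FPKM and 5.70, 7.08 and 6.59 FPKM. All knockouts lay above all wild types, with WT 3 and knockout A nearest to each other. Knockout over wild type, the log2 fold change was 0.69 ± 0.13 (SE; 95% interval 0.38 to 0.997; adjusted p = 0.124, edgeR). DESeq2 gave 0.69 with an adjusted p of 0.000725, and without WT 3 edgeR gave 0.83 with an adjusted p of 0.0397. In the 4 libraries with Gh counts the value was 0.50. The deposited span of Podn runs through part of Scp2 on the same strand, with 0 shared exon bases, and Scp2 had 1339 to 2166 counts. Permuting the 6 libraries exactly (two-sided) gave p = 0.1 for each of Podn, Dcn and Lum, and no lower value is possible with 3 libraries a group.

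Marker genes of marrow stroma, fat cells and osteoblasts also had higher summed levels in knockouts, as Podn, Dcn and Lum did. The 12 stromal markers, among them the chemokine Cxcl12, summed to 3920, 2270 and 4470 CPM in WT 1 to 3 and to 5446, 6483 and 6293 CPM in knockouts A to C. Most of this sum was Cxcl12, at 1326 to 3164 CPM in wild types and 4016 to 4891 CPM in knockouts. All 12 had a log2 fold change above 0 with a median of 0.58, and 0 passed the threshold (edgeR; 7 at an unadjusted p below 0.05). Over all tested genes, 51.2% were above 0. An unadjusted p below 0.05 (edgeR) was reached by 16.6% of them, 8.35% higher and 8.22% lower. The adipocyte markers summed to 974, 437 and 823 CPM in WT 1 to 3, against 1453, 1554 and 1221 CPM in the knockouts, with 8 of 8 tested above 0. Lpl made up most of that sum, at 279 to 624 CPM in wild types and 812 to 1020 CPM in knockouts. Adipoq is in both the stromal and the adipocyte list, so these lists are not separate observations. Osteoblast markers summed to 1039 to 1356 CPM in wild types, against 1445 to 1503 CPM in the knockouts, although the osteocalcin genes Bglap and Bglap2 had at most 7 and 8 counts and Sost had 0. The largest part was Spp1, which hardly differed, at 751 to 879 CPM in wild types and 742 to 844 CPM in knockouts. Of the 7 tested osteoblast markers, 6 had a log2 fold change above 0. Smooth muscle and pericyte markers summed to 3920 to 5602 CPM in wild types, against 3138 to 4027 CPM in the knockouts, and most of this was Acta2, at 3495 to 5082 and 2744 to 3615 CPM. Within that list 5 of 8 genes were lower and 2 higher at an unadjusted p below 0.05 (edgeR), the latter being Rgs5 (log2 fold change 1.06) and Notch3 (0.42), and 0 passed. Cartilage markers were at 350 to 509 and 269 to 311 CPM, with Col2a1 at 270 to 412 and 162 to 179 CPM and Acan at no more than 3 counts. Of 8 tested cartilage markers 4 were above 0 on the log2 fold change scale, and Comp was higher in every knockout, at 59.3 to 90.9 CPM against 15.7 to 45.8 CPM. Tendon, periosteum and fibroblast markers were at 1253 to 1768 and 1580 to 1732 CPM, endothelial markers at 80.2 to 162 and 81.4 to 159 CPM and skeletal muscle markers at 15.3 to 19.6 and 12.8 to 16.8 CPM. The part of any of these cells in the values of the members was not tested. In bulk RNA, a change in the number of cells of a type and a change in the RNA per cell cannot be told apart.

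The members shared a pattern across the wild types. WT 2 was the lowest of the 3 wild types in 9 of 9 members, as it was in 37.2% of all tested genes, and in 10 of 12 stromal and 8 of 8 tested adipocyte markers. The same held for 6 of 7 tested osteoblast, 6 of 8 cartilage and 4 of 5 blood cell markers. It held for 5 of 9 tendon and fibroblast, 3 of 8 smooth muscle, 2 of 8 endothelial and 2 of 5 skeletal muscle markers. For some members the margin was small. Lum was at 0.428 CPM in WT 2 against 0.474 CPM in WT 3, and Fmod at 284 CPM in WT 2 against 303 CPM in WT 1. WT 3 was the highest wild type in 7 members and WT 1 in the other two, Dcn and Lum. Among knockouts, knockout A was lowest in 7 members and knockout B in Prelp and Ogn. The spread within a genotype differed by gene. The range over wild types on the log2 CPM scale was 0.20 for Bgn, 0.67 for Dcn and 1.05 for Omd, and over knockouts it was 0.11, 0.14 and 0.40. The range was wider in knockouts than in wild types for Aspn (0.999 against 0.70), Lum (1.26 against 0.61) and Fmod (0.33 against 0.19). Without WT 2 the log2 fold changes of the members were 1.27 for Lum, 0.58 for Dcn, 0.58 for Podn, 0.20 for Omd, 0.09 for Ogn, -0.02 for Bgn, -0.06 for Prelp, -0.23 for Fmod and -0.49 for Aspn.

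**Figure D3:**
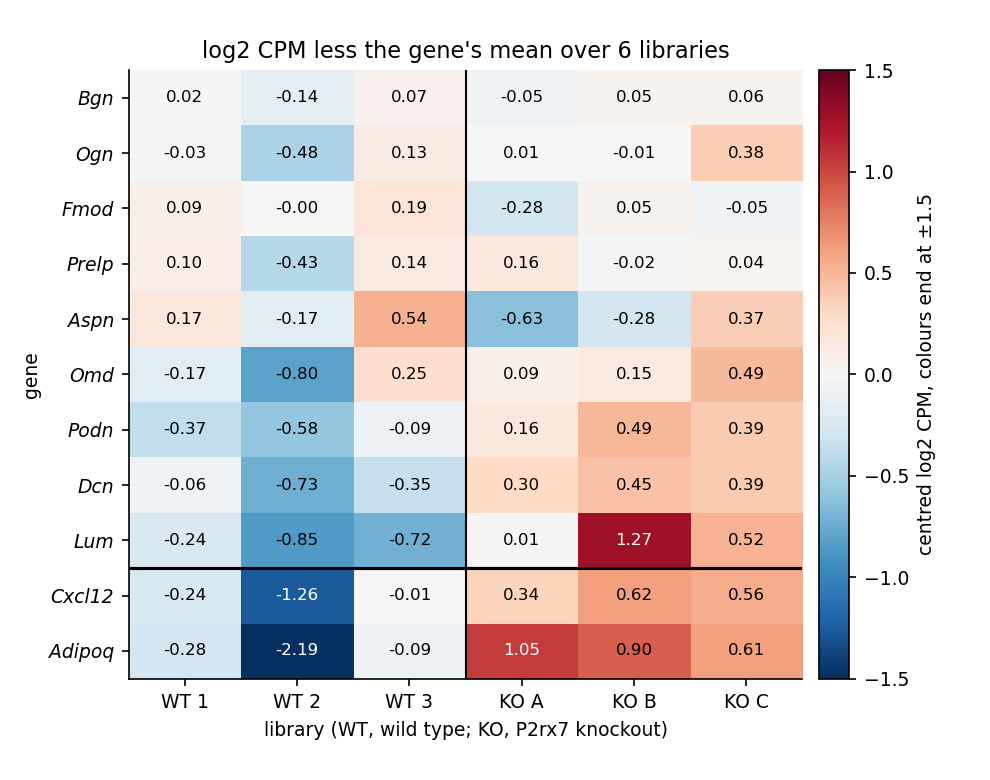
Log2 CPM of each gene in each library less the gene's mean over the 6 libraries, with the 9 members above the black line and the stromal marker Cxcl12 and the fat cell marker Adipoq below it. WT 2 is the lowest wild type in every row. Podn, Dcn, Lum, Cxcl12 and Adipoq are above their mean in all 3 knockouts and below it in all 3 wild types.

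Of the members, 7 lie in 3 groups of neighbouring family genes, and the levels within a group differed widely. On chromosome 13, Ecm2, Aspn, Omd and Ogn follow each other on the plus strand within 119.7 kb, with gaps of 11.7, 14.9 and 15.2 kb and no other gene wholly between them. The span of Cenpp on the other strand, with 45 to 75 counts, overlaps each of these genes. Ecm2, a matrix gene related to the family, was at 0.693 to 1.98 FPKM, although its neighbour Aspn was at 35.2 to 79.1 FPKM and Ogn, at the far end, at 200 to 356 FPKM. On chromosome 10, the low members Dcn and Lum are followed within 202.8 kb by Kera (keratocan) and Epyc (epiphycan). Kera and Epyc had 0 counts in all 6 libraries, which allows up to 3 counts in each, or 0.128 to 0.159 CPM, for counting error only. On chromosome 1, Optc (opticin), at 0.268 to 0.655 FPKM, and Prelp lie 2.3 kb apart on the minus strand. Fmod lies 115.8 kb beyond Prelp on the plus strand. Bgn on chromosome X (73483602 to 73495933, GRCm38) and Podn on chromosome 4 (108014791 to 108096445) stand alone.

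**Figure D4:**
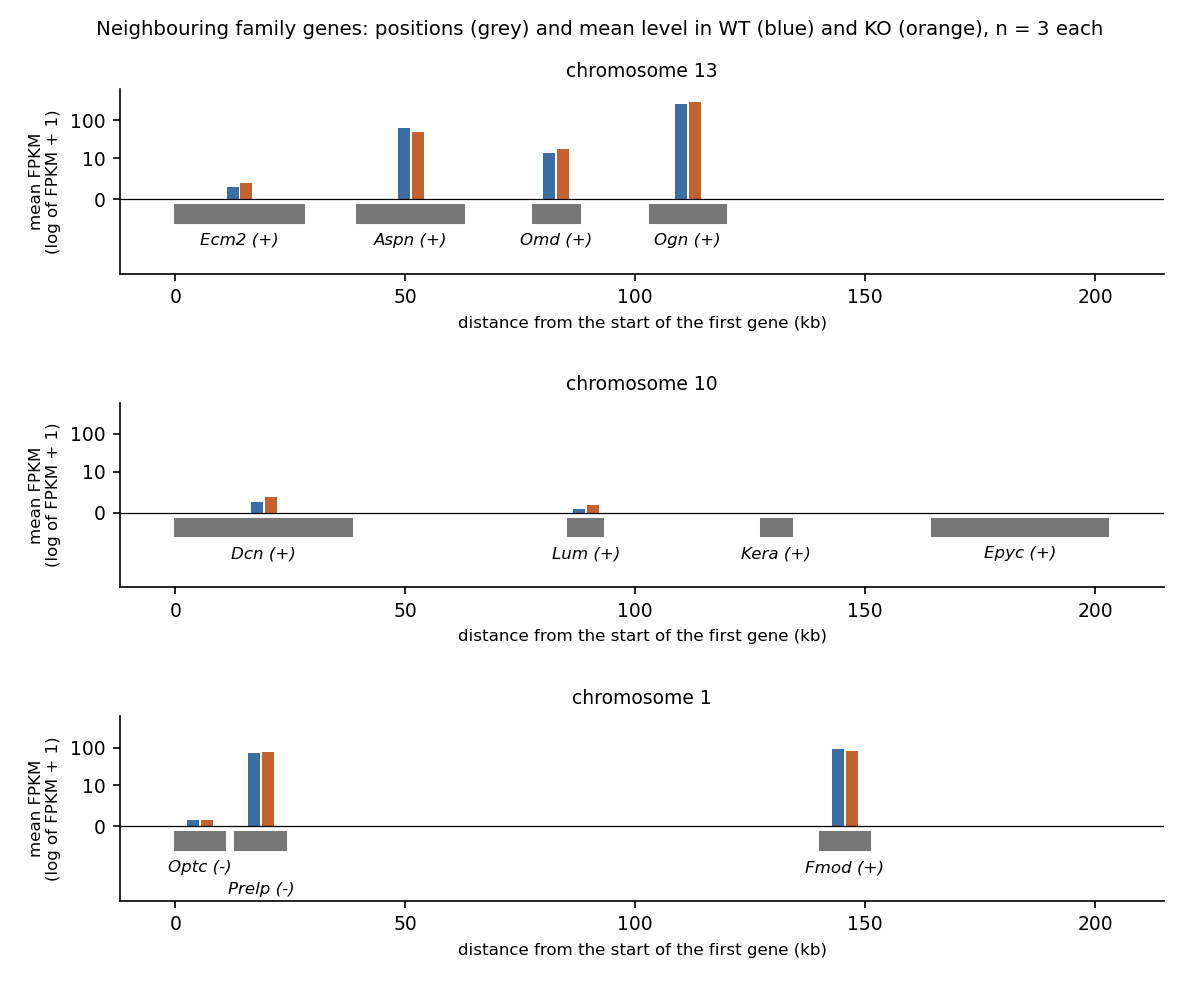
Positions of neighbouring family genes (grey, distance in kb from the start of the first gene, strand in parentheses) and their mean FPKM in wild types (blue) and knockouts (orange) on a scale of log10(FPKM + 1). Ogn is the highest gene of the chromosome 13 group, and Kera and Epyc on chromosome 10 are at 0.

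Within the chromosome 13 group, the levels of Aspn, Omd and Ogn each overlapped between genotypes, while the ratio of Aspn to either neighbour did not. Aspn over Ogn, as a ratio of FPKM, was 0.226, 0.244 and 0.262 in WT 1 to 3 and 0.127, 0.163 and 0.196 in knockouts A to C. Aspn over Omd was 4.46, 5.49 and 4.31 in wild types and 2.14, 2.62 and 3.24 in knockouts. Both ratios were lower in every knockout than in every wild type, including WT 2. A ratio of 2 tested genes did not overlap between genotypes in 22.5% of all pairs, and with 3 against 3 the exact two-sided permutation p cannot go below 0.1. Omd over Ogn overlapped, at 0.0445 to 0.0609 in wild types and 0.0593 to 0.0622 in knockouts. These ratios share genes and were chosen after their values were seen.

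**Figure D5:**
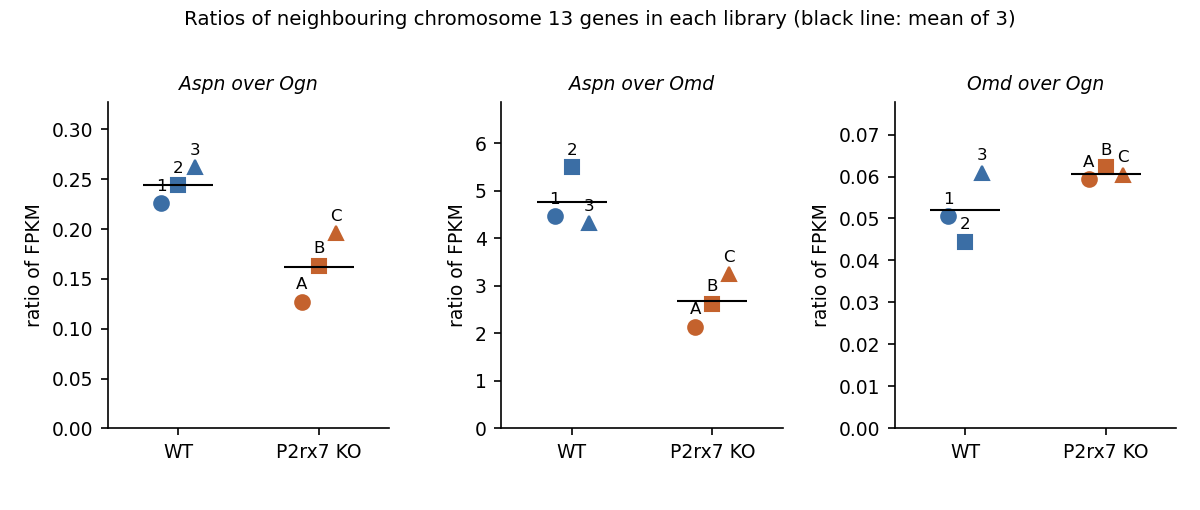
Ratio of FPKM of neighbouring chromosome 13 genes in each library (points labelled by replicate, black line at the mean of 3). For Aspn over Ogn the wild types lie at 0.226 to 0.262 and the knockouts at 0.127 to 0.196, and for Omd over Ogn the genotypes overlap.

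The family genes outside the 9 were mostly scarce. Of 9 such genes, 5 were tested and 0 passed (edgeR; 2 at an unadjusted p below 0.05, against 16.6% of all tested genes). Tsku (tsukushi), a secreted inhibitor of BMP and Wnt signals, was at 13.4 ± 0.855 FPKM in wild types and 10.8 ± 1.11 FPKM in knockouts (SD, n = 3; adjusted p = 0.171), with all knockouts below all wild types. Podnl1, the relative of podocan, was at 10.6 ± 0.424 and 10.1 ± 0.824 FPKM. Ecm2 was 0.61 ± 0.25 higher on the log2 scale (SE; adjusted p = 0.275, edgeR), with knockout C highest. Optc was at 0.268 to 0.655 FPKM and Chadl at 0.304 to 0.501 FPKM, and Chadl shares 1023 exon bases with L3mbtl2 on the other strand. Chad and Nyx had at most 3 and 5 counts in a library.

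Genes that build the sugar chains of proteoglycans showed no passing member. Of the 7 linker enzymes, 0 passed (1 higher and 1 lower at an unadjusted p below 0.05, edgeR), with a median log2 fold change of -0.05. At that level 8.35% of all tested genes were higher and 8.22% lower. Xylt2, which starts the chain by adding xylose to the core protein, was at 108 ± 2.68 CPM in wild types against 120 ± 6.92 CPM (SD, n = 3; adjusted p = 0.239). Of 15 tested chondroitin and dermatan sulfate enzymes, 0 passed (1 higher and 2 lower unadjusted) and the median was -0.04. Dse, the epimerase that turns chondroitin into dermatan sulfate, was at 186 ± 6.41 and 188 ± 3.18 CPM. Of 7 tested keratan sulfate enzymes, 0 passed (1 higher and 1 lower unadjusted), and B4galt1 was at 262 ± 11.9 and 254 ± 4.44 CPM.

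The collagens that these proteoglycans bind had no gene past the threshold. Of 16 tested fibrillar collagens and fibril partners, 0 passed by edgeR, while 1 was higher and 6 lower at an unadjusted p below 0.05, and the median log2 fold change was -0.12, with 7 of 16 above 0. Among all tested genes, 8.35% were higher and 8.22% lower at that level, and 51.2% were above 0. DESeq2 called 5 of the 16, among them Col1a1 (adjusted p = 0.0471, DESeq2) and Col2a1 (adjusted p = 2.12e-12, DESeq2). For Col2a1 the log2 fold change was -0.99 ± 0.14 (SE; adjusted p = 0.0619, edgeR). Col1a1 was at 1489 ± 176 FPKM in wild types and 1236 ± 61.4 FPKM in knockouts (SD, n = 3; adjusted p = 0.2803, edgeR), and the fibronectin gene Fn1 at 850 ± 120 and 715 ± 41.5 FPKM. Bgn, in FPKM, was above Col1a2, which was at 562 ± 63.0 and 524 ± 25.9 FPKM.

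Of 15 receptor genes, P2rx7, the knockout's own target, was the 1 that passed (log2 difference -0.67 ± 0.05, SE; adjusted p = 0.0109 by edgeR). Its call was lost without knockout B or C and in both fits that use the Gh traces. At an unadjusted p below 0.05 (edgeR), 1 of the 15 was higher and 4 were lower, P2rx7 among the latter. At that level 8.35% of all tested genes were higher and 8.22% lower. The other lower receptors were Igf1r (log2 fold change -0.37), Cd44 (-0.46) and Itgav (-0.34). DESeq2 also called Igf1r (adjusted p = 0.00292, DESeq2) and Cd44 (adjusted p = 0.0273, DESeq2). The biglycan receptors Tlr2 and Tlr4 lie outside the rule for named genes. Tlr2 was at 51.2, 51.2 and 49.8 CPM in WT 1 to 3 and 50.2, 50.1 and 45.4 CPM in knockouts A to C. Tlr4 was at 65.3, 59.3 and 65.9 CPM in WT 1 to 3, against 70.8, 65.7 and 68.5 CPM. The genotypes overlapped for both receptors. The related ATP-gated channel P2rx4 did not overlap, where wild types had 145, 142 and 154 CPM against 163, 185 and 166 CPM (adjusted p = 0.178, edgeR). Of the 15 receptor genes, the knockouts lay wholly above the wild types in 1 and wholly below them in 3. Over all tested genes, 11.5% lay wholly above and 10.4% wholly below. The cause of the P2rx4 difference was not tested. The endocytic receptor Lrp1, which takes up decorin and biglycan, was at 2663 ± 184 and 2374 ± 214 CPM (SD, n = 3).

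Of 13 tested genes for TGF-beta and BMP ligands, their receptors and partners, 0 passed (edgeR; 3 higher and 3 lower at an unadjusted p below 0.05). Tgfb1 was at 356 ± 17.4 CPM in wild types against 384 ± 27.9 CPM (SD, n = 3), and the matricellular gene Ccn2 at 947 ± 307 and 651 ± 182 CPM. Of 13 tested proteases and their enhancers, 0 passed (edgeR; 2 higher and 4 lower unadjusted). Beside both lists, 8.35% of all tested genes were higher and 8.22% lower at an unadjusted p below 0.05 (edgeR). Mmp14, a membrane-bound collagenase that activates Mmp2, was at 459 ± 37.6 and 414 ± 11.7 CPM, and Mmp2 itself at 430 ± 52.6 and 323 ± 28.9 CPM with all knockouts below all wild types (adjusted p = 0.159). Bmp1, whose protease trims the propeptides of biglycan and osteoglycin, was at 346, 326 and 409 CPM in WT 1 to 3 and 426, 416 and 420 CPM in knockouts A to C.

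The genes whose profile over the 6 libraries was most like that of each member were found among 9485 tested genes with at least 10 CPM. The measure is the mean absolute difference between centred log2 CPM values, and a smaller value means more alike. Podn was most like Plscr4 (0.0288), Irf7 (0.0445), an interferon-regulatory factor, and Npl (0.0559). Among the 3 genes most like Dcn were Phf11d (0.0765) and the class I gene H2-Q4 (0.0800). Among those most like Ogn were the type VI collagen gene Col6a1 (0.0551) and the PDGF receptor Pdgfra (0.0557), and among those most like Prelp were Bicc1 (0.0426) and Cbr2 (0.0469). Omd was most like Synm, the gap junction gene Gja1 and Sned1 (0.0516 to 0.0722). Aspn was most like Sox9 (0.109), the transcription factor of cartilage, followed by Itm2a and the fibrillin gene Fbn2. Lum had no near match, with Exoc3l4 closest at 0.261. Bgn, whose values hardly vary, was as near as 0.0161 to Usp46, and such flat profiles match many genes. Among the members themselves, Bgn and Fmod (0.111) and Prelp and Ogn (0.118) were most alike and Aspn and Lum (0.784) least. The neighbours Omd and Ogn were at 0.157, while Aspn was at 0.307 from Ogn and 0.423 from Omd.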

How the data were processed

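Flushed femur marrow was sequenced as RNA, 1 library per mouse. The labels' protocols name an RNeasy mini plus kit for RNA and a SMARTER mRNA-Seq kit for libraries, from 1.3 µg of RNA. The submitters' processing notes name GRCm38 and mm10, which denote 1 mouse assembly. Aligner, counter, annotation and strand setting are not stated there. The deposited spans of 99.3% of the genes with a symbol in GENCODE M21 equal that release (GRCm38).

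The authors deposited raw counts per gene and FPKM values. Dividing each deposited count by length and a per-library scale returned the deposited FPKM within a relative 1e-06. Depth was 18716704 to 23575652 counts per library.

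Counts were tested with edgeR 4.0.16 in R 4.3.3 (limma 3.58.1 and DESeq2 1.42.0 as alternatives). Genes were kept by filterByExpr (minimum count 10), which left 15478, and scaled by TMM. The genotype term was tested (glmQLFit, glmQLFTest; two-sided), with Benjamini-Hochberg adjusted p-values over all tested genes and a threshold of 0.05. Fold changes are knockout over wild type, with the SE and 95% interval that follow from the test statistic. CPM uses TMM scaling, and profiles used log2 CPM with a prior count of 2. The code was tested on simulated data. Alternatives were other scalings, no filter, DESeq2, limma on FPKM, and each library left out. No 2 libraries agreed within sampling noise.

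The members and lists were chosen with earlier results of these data known. The rule for named genes took all members and other family genes, P2rx7, from each list the passing genes or the 3 of highest CPM at most, genes that share exons with a member, and the 3 genes most like each member. Some genes that this rule or the marker lists name are not reported here. Genes named beyond it were chosen after their values were seen: Tlr2, Tlr4, P2rx4, Lrp1, Igf1r, Cd44, Itgav, Mmp2, Bmp1, Scp2, Gh, Alb and the cell markers. The labels mention no molecular identifiers, so floors and intervals of counts cover counting error only. Without known strand, reads in exons shared with a gene on the other strand cannot be told apart.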

Additional observations from a re-analysis of the deposited data

How the results depend on the processing

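Directions of the members held in all alternatives except for Bgn and Prelp. The log2 fold change of Bgn was -0.0215 (without WT 2) to 0.0775 with each library left out, -0.0374 in the 4 libraries with Gh counts and -0.0345 when that library set was a term, and that of Prelp was -0.0618 (without WT 2) to 0.203 with each library left out. The count of members past the threshold was 3 with every gene that had a count (Podn, Dcn and Lum), 2 by DESeq2 and 0 to 1 with each library left out (Podn, without WT 3). Over all genes the count was 970 of 30301 with every gene that had a count, and 496 of 15478 by DESeq2. Limma on log2(FPKM + 1) and log2(FPKM + 0.1) called 10 and 2. With each library left out the count was 0 (without knockout B or C) to 172 (without WT 3). For the lists, DESeq2 called 5 fibrillar collagens and partners, 2 TGF-beta and BMP genes, 3 receptors and 2 proteases, and leaving out each library gave 0 to 2 collagens and partners, 0 to 1 receptors and 0 to 1 proteases. The receptor count was 0 in the 4 libraries with Gh counts and 0 with their set as a term. The cause of these shifts was not tested. In the last 2 fits knockout A alone stands against 3 wild types and is assumed to vary like them; both were added after earlier results were known. Ranks of the members' levels were unchanged on CPM per kilobase. That measure divides by the same deposited lengths, so within a library it cannot change the order and does not test the lengths. With 10 to 41 counts, depth limits Lum most. No paired analysis was possible because wild types are numbered and knockouts lettered.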

Other observations

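Ratios of FPKM were also taken between all pairs of the 9 members within each library. Of the 36 pairs, the FPKM ratio of 21 did not overlap between genotypes, where 22.5% of all pairs of tested genes did not. Pairs share genes, and 16 of the 21 hold Dcn, Lum or Podn, which already did not overlap alone. Among the 15 pairs of the other 6 members, 5 did not overlap. Bgn over Fmod, the abundant class I and class II genes, was 8.84, 8.48 and 8.53 in WT 1 to 3 and 10.9, 9.31 and 9.99 in knockouts A to C. Fmod over Ogn was 0.339, 0.435 and 0.327 in wild types and 0.257, 0.324 and 0.233 in knockouts, and Fmod over Omd was 6.71, 9.76 and 5.37 against 4.33, 5.22 and 3.86. Aspn over Ogn and Aspn over Omd are the remaining pairs. Each of the 5 holds Fmod or Aspn, the only members with a log2 fold change below 0. Fmod over Podn was nearly constant in knockouts at 12.5, 12.5 and 12.6, against 23.5, 25.5 and 20.7 in wild types, and Podn had the smallest p of the 9.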
